A study of Mus musculus with 24 samples.

Results

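A set of 8 genes that mark tendon cells was followed in mouse skeletal muscle with and without a conditional knockout of nebulin. They are the regulators Mkx and Scx, the membrane protein gene Tnmd, and the matrix genes Fmod, Kera, Chad, Comp and Thbs4. The members were chosen by name, with earlier results of these data known. Each probe set had to be annotated to 1 of these symbols alone. For a gene with several, the brightest over all arrays would have been used. All 8 were found, each with 1 probe set, among 19938 genes with 1 symbol. All 8 lay above the dim limit (the 30th percentile of an array, 3.51 to 3.72 on the log2 scale) on each of the 24 arrays, and so were among the 15999 genes that passed the filter on dim values.

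Affymetrix arrays were used to read the mRNA of quadriceps and soleus from male mice of 40 to 42 days with a mixed background given as C57BL/6J and 1219S6/SvEvTac. Every animal, controls included, carried 2 copies of a conditional allele of Neb, the gene of nebulin, a giant protein of the thin filament. The conditional knockout (cKO) mice were in addition hemizygous for a Cre recombinase under the muscle creatine kinase promoter (MCK-Cre), which is active in muscle fibres, and the controls had no Cre. The 2 muscles of the 2 genotypes made 4 groups with 6 arrays each. Quadriceps of the cKO was markedly smaller than in controls according to the submitters, whereas soleus was not significantly smaller. Neb read 12.29 ± 0.17 (SD, n = 6) in quadriceps control and 10.84 ± 0.23 in quadriceps cKO, and 12.38 ± 0.21 in soleus control and 11.24 ± 0.20 in soleus cKO on the log2 scale. The muscles were whole tissue, so fewer tendon cells in a sample and less of a transcript per cell cannot be told apart.

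Tendon joins muscle to bone and is built by tenocytes, fibroblasts that lie between parallel bundles of type I collagen. Scleraxis (Scx), a basic helix-loop-helix factor, and Mohawk (Mkx), a homeobox factor, direct the tendon programme, and tenomodulin (Tnmd) is a membrane glycoprotein of mature tendon cells downstream of Scx. Fibromodulin (Fmod) and keratocan (Kera) are small leucine-rich proteoglycans that bind collagen and steer the assembly of its fibrils, and chondroadherin (Chad) is a leucine-rich repeat protein that binds collagen and integrins. Cartilage oligomeric matrix protein (Comp, also thrombospondin 5) and thrombospondin 4 (Thbs4) are pentameric thrombospondins of tendon matrix. Muscle carries tendon tissue in its fascia, its inner tendon sheets and its ends, so the amount of tendon in a sample depends on how a muscle is cut out. Thbs4 is in addition made by muscle fibres and deposited at the junction of fibre and tendon.

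Scx binds E-boxes, 6-base motifs of the form CANNTG, and the promoters of the members are shown because Scx, itself a member, acts on other tendon genes through such motifs. RefSeq promoter sequences of GRCm38.p6 (the mm10 assembly) were matched for 5 of the 8 members, and 4 are printed here, each covering the 250 bases before the annotated start, 5′ to 3′ on the gene's strand with CANNTG in capitals. The fixed letters of CANNTG read the same on both strands. Fmod lies at chr1:134037254-134048280 and its printed bases are chr1:134037004-134037253 on the plus strand. Chad lies at chr11:94565047-94569127 and its printed bases are chr11:94564797-94565046 on the plus strand. Thbs4 lies at chr13:92751586-92794818 and its printed bases are chr13:92794819-92795068 on the minus strand. Tnmd lies at chrX:133851008-133865577 and its printed bases are chrX:133850758-133851007 on the plus strand.
Fmod: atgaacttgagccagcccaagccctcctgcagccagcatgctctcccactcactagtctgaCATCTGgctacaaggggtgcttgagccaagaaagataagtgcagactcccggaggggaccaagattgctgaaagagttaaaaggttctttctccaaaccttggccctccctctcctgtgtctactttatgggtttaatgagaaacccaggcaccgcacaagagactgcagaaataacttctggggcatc
Chad: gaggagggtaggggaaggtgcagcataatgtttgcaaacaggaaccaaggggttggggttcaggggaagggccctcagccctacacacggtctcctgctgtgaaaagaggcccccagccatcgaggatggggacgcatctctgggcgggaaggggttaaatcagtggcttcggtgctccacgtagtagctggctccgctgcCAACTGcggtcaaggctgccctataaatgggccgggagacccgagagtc
Thbs4: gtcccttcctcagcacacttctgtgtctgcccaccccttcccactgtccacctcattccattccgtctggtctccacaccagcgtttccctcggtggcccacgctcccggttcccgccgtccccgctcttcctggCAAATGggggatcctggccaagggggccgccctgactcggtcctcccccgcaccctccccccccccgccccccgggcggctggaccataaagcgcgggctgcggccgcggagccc
Tnmd: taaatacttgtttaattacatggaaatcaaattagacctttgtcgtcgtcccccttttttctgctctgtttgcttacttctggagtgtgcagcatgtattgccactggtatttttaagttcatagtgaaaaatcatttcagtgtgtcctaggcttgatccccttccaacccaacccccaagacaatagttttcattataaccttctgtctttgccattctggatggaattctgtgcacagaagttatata

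An E-box stood 189 bases before the start of Fmod (CATCTG), 49 bases before the start of Chad (CAACTG) and 115 bases before the start of Thbs4 (CAAATG). The windows of Tnmd and of Kera (gene at chr10:97606962-97613688) held no match, which says only that these letters are absent from this window. Kera's window in the promoter table precedes a later annotated start, so nearly all of it (chr10:97606955-97607204) lies inside the gene as given here. Thus 3 of 5 member promoters held CANNTG, against 66.2% of the 32851 promoters in the table. The narrower motif CAGATG, read on either strand and a subset of CANNTG, was in 1 of the 5 (Fmod, as CATCTG) and in 14.4% of all promoters. Of the other members, 2 lie at chr15:76457411-76459468 (Scx) and chr8:70373548-70382066 (Comp).

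In soleus 5 of the 8 tendon genes fell in the knockout and Thbs4 rose. Kera fell 3.68-fold, Chad 1.77-fold, Fmod 1.65-fold, and Mkx and Tnmd 1.60-fold each. Thbs4 rose 1.92-fold, and Comp and Scx read lower without passing the test. The 5 members called lower compare with a background in which 9.94% of the 15999 tested genes were called lower. The 1 of 8 called higher was near the 13.2% of all tested genes called higher. Because the members were chosen with earlier results of these data known, these shares are no independent test of the set. A gene was called at an adjusted p under 0.05 in limma, with Benjamini-Hochberg adjustment over all tested genes. The median change of the 8 was -0.67 on the log2 scale, against -0.02 over all tested genes.

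Of the regulators, Mkx changed most in soleus. Its log2 level ran from 5.61 through a median of 5.91 to 6.17 in soleus control, and from 4.96 through 5.23 to 5.54 in soleus cKO. The 2 groups did not overlap, and the log2 change was -0.67 (SE 0.11, limma adjusted p = 5.17e-05). Scx ran from 7.37 through 7.62 to 7.98 in soleus control and from 7.23 through 7.42 to 7.67 in soleus cKO, so that its groups overlapped (change -0.27, SE 0.14, adjusted p = 0.183, 95% interval -0.55 to 0.02).

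Tnmd, the marker of mature tendon cells, ran from 8.63 through 9.01 to 9.25 in soleus control and from 7.61 through 8.41 to 8.70 in soleus cKO. Of the knockout arrays 5 of 6 lay below every control array, and replicate 2 at 8.70 lay within the control range (change -0.67, SE 0.19, limma adjusted p = 0.00859).

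Among the leucine-rich repeat proteins Kera had the largest change of any member. Its log2 level ran from 7.59 through 8.34 to 8.79 in soleus control and from 5.50 through 6.65 to 6.92 in soleus cKO. The lowest control array thus lay above the highest knockout array, and the change was -1.88 (SE 0.27, limma adjusted p = 8.45e-06, 95% interval -2.44 to -1.32). Fmod, which guides early steps of collagen fibril assembly, ran from 10.22 through 10.63 to 10.79 in soleus control and from 9.45 through 9.99 to 10.10 in soleus cKO. These groups did not overlap either (change -0.72, SE 0.13, adjusted p = 0.000174). Chad ran from 7.39 through 7.83 to 8.18 in soleus control and from 6.72 through 6.93 to 7.30 in soleus cKO, again without overlap (change -0.82, SE 0.18, adjusted p = 0.0013).

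Of the pair of thrombospondins, Thbs4 rose and Comp was not called. Thbs4 ran from 9.86 through 9.98 to 10.17 in soleus control and from 10.73 through 10.93 to 11.20 in soleus cKO, with every knockout array above every control array (change 0.94, SE 0.12, limma adjusted p = 8.76e-07). Comp ran from 7.33 through 7.57 to 7.71 in soleus control and from 6.84 through 7.28 to 7.42 in soleus cKO, with overlap (change -0.33, SE 0.13, adjusted p = 0.0715, 95% interval -0.59 to -0.06). Comp passed the threshold with 75th percentile and quantile scaling, with array weights, with soleus fitted alone and without quadriceps control replicate 6 (adjusted p from 0.028 to 0.0475). Soleus groups without overlap were thus found for 4 members that read lower in the cKO, against 4.96% of tested genes, and for 1 that read higher, against 7.82%.

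**Figure D1:**
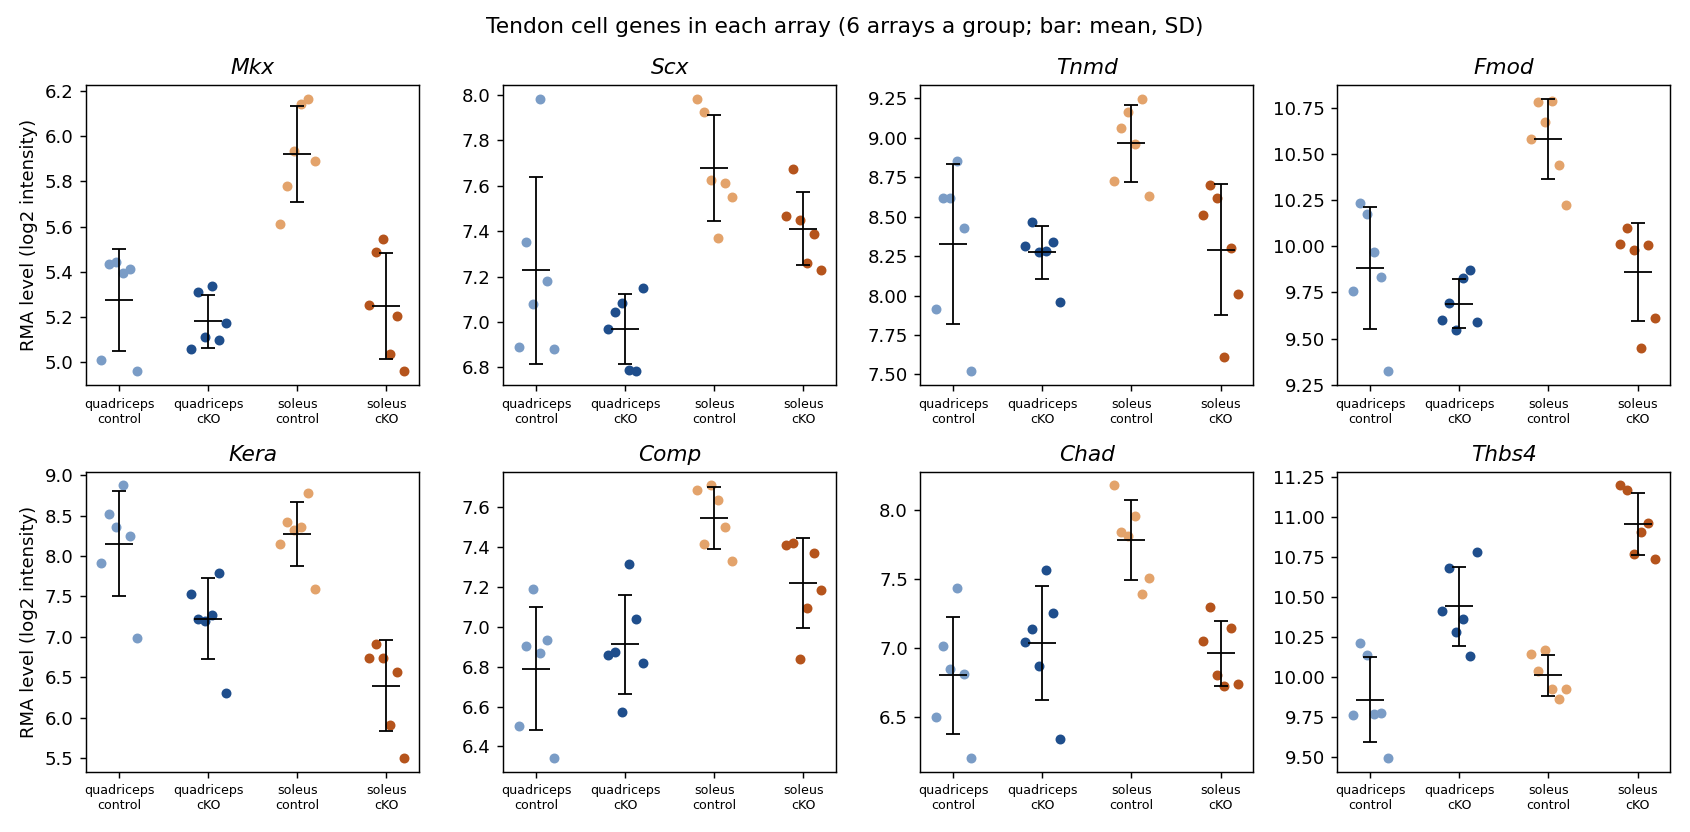
Log2 intensity of each of the 8 tendon genes on every array (y axis), by group (x axis), with points for arrays and bars for the group mean and SD (n = 6). In soleus the cKO arrays of Mkx, Fmod, Kera and Chad lie below all control arrays and those of Thbs4 lie above them, while in quadriceps no gene has groups without overlap.

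In quadriceps the picture was narrower: Kera fell 1.91-fold, Thbs4 rose 1.50-fold, and the other 6 members did not pass the test. The background here was higher than in soleus, with 17.7% of tested genes called lower and 22.3% called higher, so that 1 of 8 in each direction was near it. The median change of the members was -0.07, against -0.01 over all tested genes. No member had quadriceps groups without overlap, while 10.1% of tested genes read higher and 6.06% lower in the cKO without overlap.

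Kera ran from 6.99 through 8.31 to 8.88 in quadriceps control and from 6.31 through 7.25 to 7.80 in quadriceps cKO. The control range was wide because of replicate 6 at 6.99, the only control array below the highest knockout array (change -0.93, SE 0.27, limma adjusted p = 0.00821, 95% interval -1.49 to -0.37). Thbs4 ran from 9.50 through 9.78 to 10.21 in quadriceps control and from 10.14 through 10.39 to 10.78 in quadriceps cKO, and 5 of 6 knockout arrays lay above every control array (change 0.58, SE 0.12, adjusted p = 0.000309).

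The other members had overlapping groups in quadriceps, and the intervals of their changes held 0. Mkx ran from 4.96 through 5.40 to 5.44 in control and from 5.06 through 5.14 to 5.34 in cKO (change -0.09, 95% interval -0.32 to 0.14). Tnmd ran from 7.52 through 8.52 to 8.85 in control and from 7.96 through 8.30 to 8.47 in cKO (change -0.05, 95% interval -0.44 to 0.33). For both, the knockout arrays all fell inside the control range. Scx changed by -0.26 (95% interval -0.54 to 0.03) and Fmod by -0.19 (95% interval -0.46 to 0.08), while Chad changed by 0.23 (95% interval -0.14 to 0.61) and Comp by 0.12 (95% interval -0.14 to 0.39). Single arrays moved these values: Scx changed by -0.106 without quadriceps control replicate 4, Comp by 0.0323 without quadriceps control replicate 6, and Chad by 0.112 without that array and by 0.371 without quadriceps cKO replicate 6. Fmod passed the test when quadriceps control replicate 6 was left out (change -0.30, adjusted p = 0.0423).

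**Figure D2:**
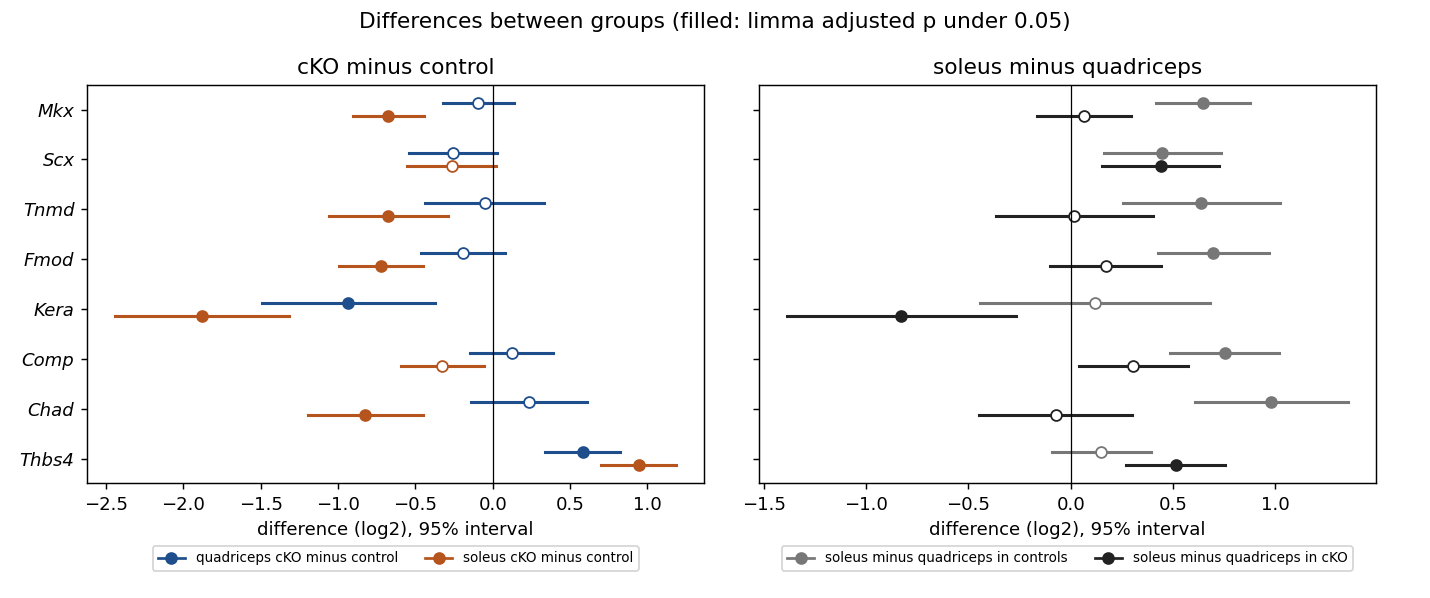
Difference in log2 intensity of each tendon gene (y axis) with its 95% interval, 6 arrays per group. The left panel has the knockout against the control of the same muscle, and the right panel soleus against quadriceps of the same genotype. In the left panel Kera is lower and Thbs4 higher in both muscles. The soleus estimates of Chad, Fmod, Mkx, Tnmd and Comp there lie below 0 with intervals that leave it out, though Comp did not pass the adjusted test.

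Whether the knockout changed a gene differently in the muscles was tested as soleus change minus quadriceps change. Chad passed, with -1.05 (SE 0.26, limma adjusted p = 0.00778), its estimate being below 0 in soleus and above 0 in quadriceps. Mkx passed with -0.58 (SE 0.16, adjusted p = 0.0166). These were 2 of 8 members, both lower, against 7.39% of tested genes called lower and 4.89% called higher, and the median over members was -0.55 against 0.00 over all tested genes. Both cKO changes enter this difference, so it is no further evidence of the soleus falls.

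For the rest the difference between muscles was not called: Fmod -0.53 (SE 0.19, adjusted p = 0.0637), Kera -0.95 (SE 0.39, adjusted p = 0.107), Comp -0.45 (adjusted p = 0.11), Tnmd -0.62 (adjusted p = 0.124), Thbs4 0.36 (adjusted p = 0.159) and Scx -0.01 (adjusted p = 0.987, 95% interval -0.41 to 0.40). With the 2 muscles of an animal as a random block, 4 members were called, Fmod (limma adjusted p = 0.0254) and Kera (0.0437) in addition. With the replicate number as a fixed block 5 were called, Tnmd being the fifth (adjusted p = 0.0498). Without number 6 in every group, a setting chosen after seeing the data, Mkx no longer passed (-0.47, adjusted p = 0.0631), whereas Kera (-0.86, adjusted p = 0.027) and Thbs4 (0.53, adjusted p = 0.0313) did.

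Between the control muscles most tendon genes were higher in soleus. The 6 called members were Chad (1.97-fold), Comp (1.69-fold), Fmod (1.62-fold), Mkx (1.57-fold), Tnmd (1.56-fold) and Scx (1.36-fold), with limma adjusted p from 5.77e-05 for Comp to 0.0139 for Scx. Over all tested genes 15.2% were called higher in soleus and 18.3% lower. Comp and Mkx were higher in soleus with no overlap of the control groups, as 3.94% of tested genes were (7.73% were lower without overlap). Comp, for example, ran from 6.34 through 6.89 to 7.19 in quadriceps control, all below the 7.33 of its lowest soleus control array. Kera (0.12, SE 0.27, 95% interval -0.44 to 0.68) and Thbs4 (0.15, SE 0.12, 95% interval -0.09 to 0.39) did not differ beyond their spread. This comparison shares the soleus control arrays with the soleus cKO comparison, so a high control reading moves both.

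In the knockout muscles, Scx (0.44, SE 0.14, limma adjusted p = 0.0199) and Thbs4 (0.51, SE 0.12, adjusted p = 0.00211) were higher in soleus and Kera was lower (-0.83, SE 0.27, adjusted p = 0.0247). That is 2 members higher and 1 lower, where 11.9% of tested genes were higher and 16.9% lower. Kera lost its call with quantile normalization (adjusted p = 0.0576) and without quadriceps cKO replicate 1 or 5 or soleus cKO replicate 4 or 6 (adjusted p from 0.0515 to 0.0707). Comp (0.31, adjusted p = 0.0757) passed with the animal as a random block (adjusted p = 0.0385), with 75th percentile or quantile scaling, with array weights, and without quadriceps cKO replicate 4 or soleus cKO replicate 3 (adjusted p from 0.0197 to 0.0342). Mkx (0.07), Tnmd (0.02), Fmod (0.17) and Chad (-0.07) were not called.

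The 4 group means were ordered differently from gene to gene. For Mkx, Tnmd and Chad soleus control stood highest (5.92 ± 0.21, 8.97 ± 0.24 and 7.78 ± 0.29, SD, n = 6) and the other groups lay close together: Mkx between 5.18 and 5.28, Tnmd between 8.27 and 8.33, and Chad between 6.80 and 7.03. For Fmod, soleus control (10.58 ± 0.22) likewise stood above soleus cKO (9.86 ± 0.26), quadriceps control (9.88 ± 0.33) and quadriceps cKO (9.69 ± 0.13), and those neighbours did not differ beyond their spread. Scx ran from quadriceps cKO (6.97 ± 0.15) through quadriceps control (7.23 ± 0.41) and soleus cKO (7.41 ± 0.16) to soleus control (7.68 ± 0.23). Its called steps were those between muscles of 1 genotype.

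Comp ran from quadriceps control (6.79 ± 0.31) and quadriceps cKO (6.91 ± 0.25) through soleus cKO (7.22 ± 0.23) to soleus control (7.54 ± 0.15), and no step between neighbours passed the test. Kera was ordered soleus cKO (6.39 ± 0.56), quadriceps cKO (7.22 ± 0.50), quadriceps control (8.15 ± 0.65) and soleus control (8.27 ± 0.40), and the 2 control groups did not differ beyond their spread. Thbs4 had the reverse order by genotype: quadriceps control (9.86 ± 0.27) and soleus control (10.01 ± 0.13) were lowest, followed by quadriceps cKO (10.44 ± 0.24) and soleus cKO (10.95 ± 0.19).

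The members varied together among arrays of 1 group. Each value was turned into a deviation from its group mean, and the 28 pairs of members were correlated over the 12 arrays of a muscle, 56 correlations in all. In quadriceps the median r was 0.62, and 27 of 28 pairs were above 0. In soleus the median r was 0.44, and 24 of 28 pairs were above 0. Over all pairs of tested genes the median r was 0.001 in quadriceps and 0.005 in soleus, with 50.1% and 50.5% of pairs above 0. The 2 arrays farthest from the median of a pair's first-named gene were also left out, which keeps extremes of the second gene. The median over the member pairs was then 0.43 in both muscles. Calls on pairs below are by Pearson's r, with p adjusted over the 56.

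The tightest pair was Tnmd and Kera. Its r in quadriceps was 0.88 (permutation p = 0.00054, adjusted p = 0.0198) with a Spearman rho of 0.81 (permutation p = 0.00424). The pair's r was 0.71 without the 2 arrays farthest from the median of Tnmd. In soleus its r was 0.85 (permutation p = 0.00212, adjusted p = 0.0237) with a rho of 0.92 (permutation p = 0.00011), and 0.86 without the 2 farthest arrays. It was the only soleus pair called by Pearson's r, while Spearman's rho called 2, Mkx with Tnmd in addition (rho 0.77, adjusted permutation p = 0.0478). By r no soleus pair was called without soleus cKO replicate 2, 3 or 5, against 5 without soleus control replicate 4.

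In quadriceps 3 more pairs were called by r: Kera with Chad (r 0.87, adjusted permutation p = 0.0198, rho 0.80), Tnmd with Chad (r 0.81, adjusted permutation p = 0.0198, rho 0.74) and Fmod with Comp (r 0.82, adjusted permutation p = 0.0237, rho 0.85). Without the 2 farthest arrays these gave r of 0.68, 0.66 and 0.86. Spearman's rho called 7 quadriceps pairs, with Mkx and Comp, Tnmd and Fmod, and Fmod and Chad in addition (adjusted permutation p from 0.0452 to 0.0458). By r no quadriceps pair was called without quadriceps control replicate 6 or quadriceps cKO replicate 6, and 7 were without quadriceps control replicate 4. Pairs that include Thbs4 had a median r of 0.37 in quadriceps and 0.50 in soleus. Pairs of the other members had 0.68 and 0.44, so Thbs4 stood apart by this median in quadriceps only.

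Single arrays could be read off the mean deviation of the 7 members other than Thbs4. Array number 6 was low in every group, by -0.61 in quadriceps control, -0.28 in quadriceps cKO, -0.29 in soleus control and -0.31 in soleus cKO. In 3 of these 4 arrays none of the 7 genes lay above its group mean, and in quadriceps cKO 1 did. Kera deviated most there, by -1.16, -0.92, -0.68 and -0.90 in the same order. Number 6 mice were aged 40 days and most others 41, and quadriceps cKO replicate 4, also labelled 40 days, deviated by 0.16. Soleus cKO replicate 4 (-0.33) and quadriceps control replicate 1 (-0.28) were low for all 7 genes as well. Quadriceps control replicate 4 (0.42) and soleus cKO replicate 2 (0.32) were high for all 7. Limma array weights, low where an array spreads more over all tested genes, were 0.21 and 0.39 for quadriceps control replicates 4 and 6. The weights were 1.52 for soleus cKO replicate 2, and 1.23, 0.81 and 0.86 for number 6 of quadriceps cKO, soleus control and soleus cKO. The part of age or of dissection in the spread of the 7 genes was not tested.

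**Figure D3:**
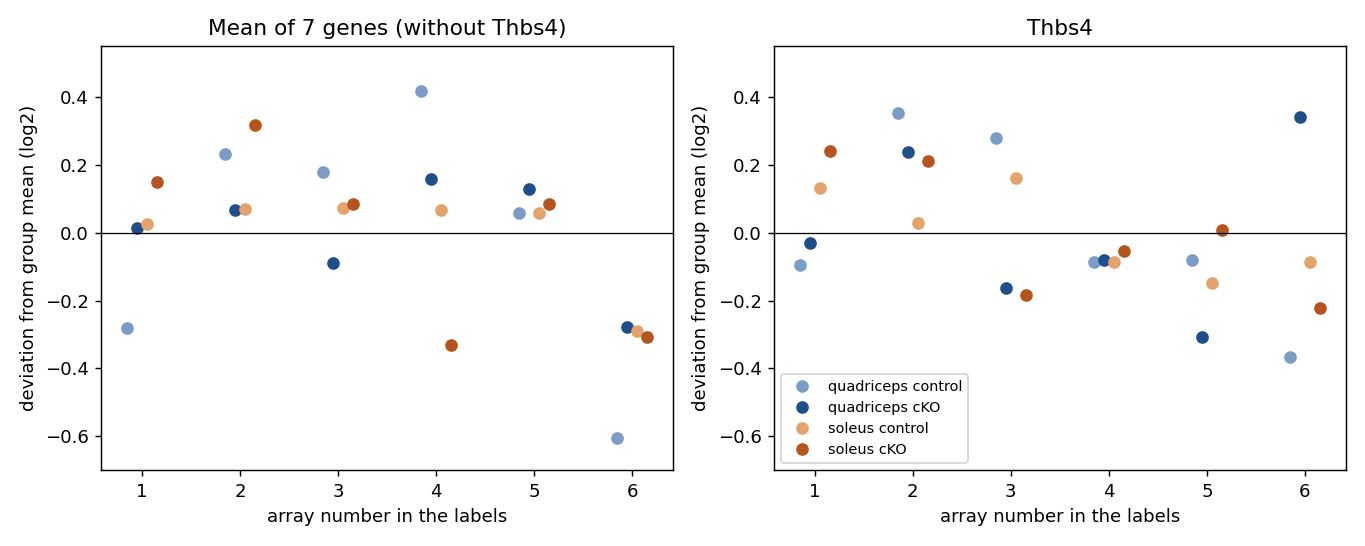
Deviation of each array from its group mean (y axis, log2 units), by group and array number, for the mean of the 7 tendon genes other than Thbs4 and for Thbs4. Number 6 lies below 0 in every group for the 7 genes, while Thbs4 at number 6 is -0.37, 0.34, -0.09 and -0.22.

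By a rule that ranks genes by their correlation with the mean deviation of the members over 12 arrays, the nearest in quadriceps were Olfml3 (r 0.96), Ifitm2 (0.95), Clec11a (0.94), Ecrg4 (0.93) and Tubb2a (0.92). In soleus they were Krt15 (r 0.91), Olfr1340 (0.89), Prph (0.88), Cdhr5 (0.87) and Col1a2 (0.87). These are the top ranks among the tested genes, with the members and predicted names (Gm with digits, Rik) left out, and carry no test.

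**Figure D4:**
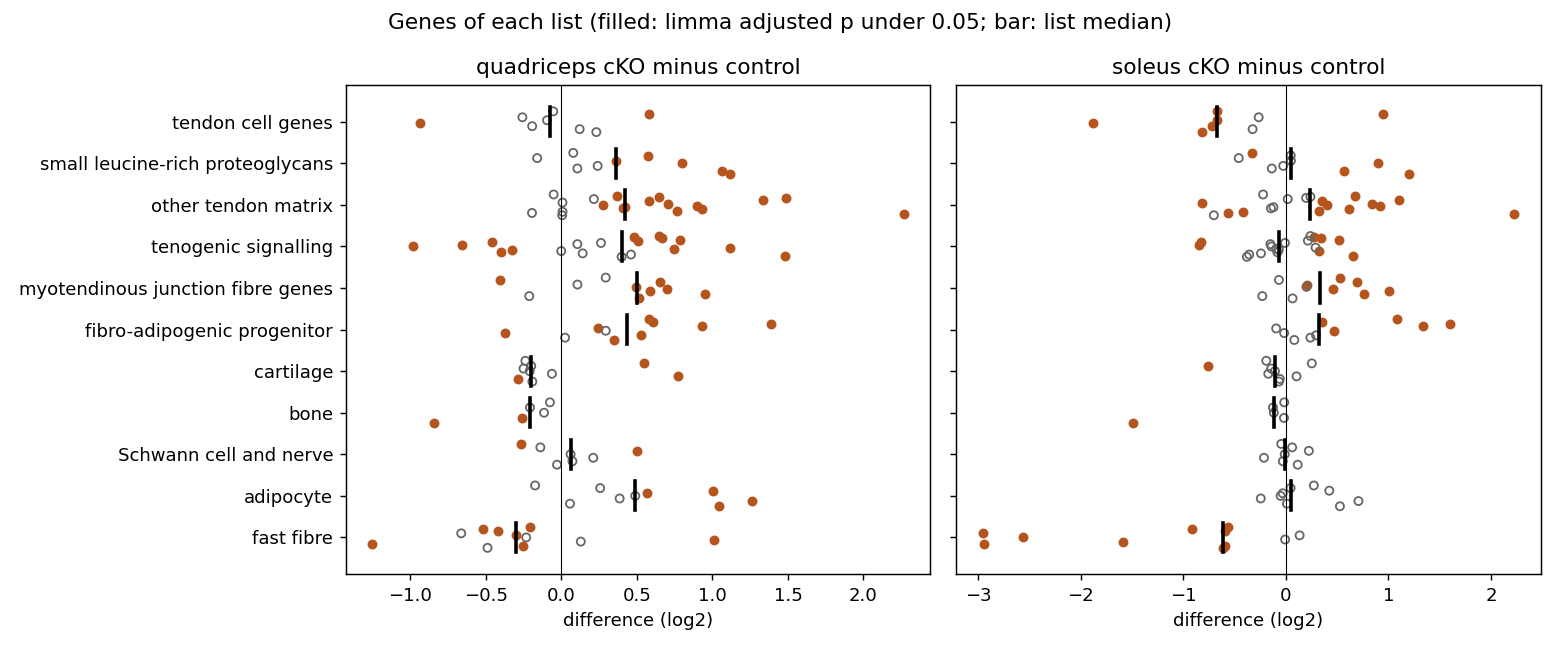
Log2 change of every kept gene of 11 lists (red blood cell and epidermis not drawn), knockout against control within quadriceps and within soleus (x axis), by list (y axis), with the list medians marked. The tendon cell genes have a soleus median of -0.67, while the other tendon matrix genes have medians of 0.42 in quadriceps and 0.24 in soleus.

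Among other genes of tendon matrix, more rose than fell in both muscles, as was so over all tested genes (22.3% higher and 17.7% lower in quadriceps, 13.2% and 9.94% in soleus). Of the other small leucine-rich proteoglycans, 9 of 10 listed genes passed the filter (Epyc was dim on all arrays). In quadriceps 5 rose and 0 fell (limma, and 0 at an unadjusted p under 0.05; median 0.36), and in soleus 3 rose and 1 fell (median 0.05). Asporin (Aspn) rose by 1.12 in quadriceps and 1.20 in soleus, lumican (Lum) by 0.80 and 0.90, and biglycan (Bgn) by 1.06 and 0.56 on the log2 scale. Prelp fell by 0.33 in soleus (adjusted p = 0.0304).

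Of 19 other tendon matrix genes measured, 13 rose and 0 fell in quadriceps (limma, and 0 fell at an unadjusted p under 0.05), and 9 rose and 3 fell in soleus (Col11a1, Cilp2 and Cpxm2). Cilp, a cartilage intermediate layer protein, rose by 2.27 in quadriceps and 2.22 in soleus, and Mustn1 by 1.33 and 1.10. The type I collagen genes, the bulk protein of tendon, rose in quadriceps, Col1a1 by 0.41 and Col1a2 by 0.42. In soleus Col1a1 changed by -0.15 and Col1a2 by -0.12 and neither was called, and the difference between the muscles was not called either (adjusted p = 0.081 for Col1a1 and 0.083 for Col1a2). Thbs3, another pentameric thrombospondin, rose by 0.37 and 0.67.

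Genes of tendon-forming signals, their receptors and downstream factors, read in whole muscle, changed in both directions. Of 19 measured, 8 rose and 5 fell in quadriceps, against 22.3% and 17.7% of all tested genes. In soleus 5 rose and 2 fell, against 13.2% and 9.94% of all tested genes, and the share that fell lay near its background. The growth factor gene Tgfb3 rose by 0.67 and 0.35 in quadriceps and soleus, and Ccn2, a matricellular target of TGF-beta, by 1.48 and 0.65. Smad3, which carries the TGF-beta signal to the nucleus, fell by 0.66 and 0.84, and Tcf15, a basic helix-loop-helix relative of Scx, by 0.46 and 0.83. Gdf6 rose by 1.12 in quadriceps and changed by 0.29 in soleus.

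Of 10 fibre genes of the junction with tendon, 6 rose in each muscle, where 22.3% of all tested genes rose in quadriceps and 13.2% in soleus. Tln2 was called lower in quadriceps (-0.40, limma adjusted p = 0.00406), as were 17.7% of tested genes. Integrin alpha 7 (Itga7), the fibre's laminin receptor, rose by 0.59 and 1.01 in quadriceps and soleus, and talin 1 (Tln1), which ties integrins to actin, by 0.66 and 0.70. Col22a1, the collagen most particular to that junction, changed by -0.21 and -0.23 and was not called.

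Markers of tissue that dissection can carry along were read beside the members. The 8 tendon genes summed to linear intensities of 1976 to 3608 in quadriceps control, 2831 to 3401 in quadriceps cKO, 3344 to 4385 in soleus control and 3222 to 4508 in soleus cKO. These sums mix Thbs4, which rose, with genes that fell. In this and every other linear sum below, the brightest genes weigh most.

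Cartilage and bone genes were called in small numbers, to be read against the shares of all tested genes given above. Of 11 cartilage genes 9 passed the filter (Matn1 and Hapln1 were dim on all arrays), and the summed level of all 11 was 408 to 508 in soleus control and 401 to 465 in soleus cKO. Only Matn3 was called in soleus (-0.76, limma adjusted p = 1.09e-06), and 2 rose and 1 fell in quadriceps, where the sums were 306 to 441 in control and 348 to 425 in cKO. Of 7 bone genes measured, 5 passed the filter (Phex and Mepe were dim on all arrays). The sum over all 7 was lower in the cKO without overlap in both muscles, with 245 to 389 in soleus control and 169 to 202 in soleus cKO, and 214 to 286 in quadriceps control and 164 to 190 in quadriceps cKO. The called bone genes were Alpl in both muscles (-0.84 in quadriceps and -1.49 in soleus), an alkaline phosphatase also made outside bone, and Dmp1 in quadriceps (-0.26).

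Fat and connective tissue markers that were called mostly rose, where 22.3% of all tested genes rose in quadriceps and 13.2% in soleus. Of 9 adipocyte genes, 4 rose in quadriceps (Cidec by 1.26, Adipoq by 1.04) and 0 were called in soleus (limma; 1 was higher at an unadjusted p under 0.05). Their sum was 2210 to 5929 in quadriceps control, 3332 to 8324 in quadriceps cKO, 2207 to 3280 in soleus control and 2134 to 3487 in soleus cKO. Of 10 markers of fibro-adipogenic progenitors, the fibroblasts between fibres, 7 rose and 1 fell in quadriceps and 5 rose in soleus. Their sum was 3846 to 4540 in soleus control and 4964 to 6305 in soleus cKO, without overlap, and 3770 to 5785 in quadriceps control and 5719 to 6649 in quadriceps cKO.

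Nerve, blood and skin markers were also read. Over all tested genes 22.3% rose and 17.7% fell in quadriceps, and 13.2% rose and 9.94% fell in soleus. Of 7 Schwann cell and nerve genes 1 rose (Pmp22, 0.50) and 1 fell (Sox10, -0.27) in quadriceps and 0 were called in soleus (limma, and 0 at an unadjusted p under 0.05). Their sums were 852 to 1369 in quadriceps control and 1391 to 1593 in quadriceps cKO, without overlap, and 1058 to 1400 in soleus control and 1149 to 1530 in soleus cKO. Of the 2 red blood cell genes measured, Alas2 fell in soleus (-0.49), and their sum was 68.0 to 105 in quadriceps control, 60.1 to 92.3 in quadriceps cKO, 69.3 to 98.6 in soleus control and 51.2 to 74.9 in soleus cKO. The sum of 7 epidermis genes was higher in the cKO without overlap in both muscles, at 207 to 337 in quadriceps control and 495 to 568 in quadriceps cKO, and at 190 to 259 in soleus control and 362 to 465 in soleus cKO. Of the 5 that passed the filter, Trp63 alone, a transcription factor of basal epidermis, was called higher, in both muscles (by 1.77 and 1.83). Krt10 fell in quadriceps (-0.23), and the basal keratin Krt5 (-0.16 and -0.19) and its partner Krt14 (-0.13 and -0.04) were not called in either.

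The fibre genes themselves also differed: of 11 fast fibre genes, 1 rose and 6 fell in quadriceps and 9 fell in soleus. Over all tested genes 17.7% fell in quadriceps and 9.94% in soleus. The sum of the fast fibre genes in soleus ran from 30621 to 45058 in control and from 22570 to 28768 in cKO. In quadriceps it ran from 62849 to 69262 in control and from 49862 to 58077 in cKO. What part these lists, or the amount of tendon cut out with the muscle, have in the tendon gene values was not tested.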

How the data were processed

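The authors deposited 1 intensity for each probe set of an array. Affymetrix Expression Console and RMA (background correction, quantile normalization and probe set summary) made these values, per the submitters' processing notes, which name mm10 as build and no versions. These deposited intensities are linear (1.76 to 10075) and were turned to log2. Of 35557 probe sets, 21789 carry 1 symbol, 1621 several and 12147 none listed; symbols were updated through Entrez numbers, and 21698 probe sets matched RefSeq (GRCm38.p6). A gene was kept if above the array's 30th percentile on at least 6 arrays.

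Groups came from the sample titles. A limma model of 4 group means (R 4.3.3, limma 3.58.1) was fitted to all 24 arrays with 20 residual degrees of freedom, p-values were two-sided and adjusted by Benjamini-Hochberg over 15999 genes, and the script was tested on simulated data. Correlations used 100000 permutations within groups. The members and gene lists were chosen with earlier results of these data known. Named genes are the members, up to 4 genes with the smallest p of each list and comparison, and the 5 nearest genes per muscle; Col1a1, Col1a2, Col11a1, Cilp2, Cpxm2, Col22a1, Alas2 and the genes dim on all arrays were singled out after their values were seen, as were genes named for their value in the other muscle. Alternatives were other filters and scalings, array weights, moderation with trend, fits per muscle, replicate blocks, age, an exact permutation test and leaving out arrays.

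The labels number the arrays 1 to 6 in every group. To see whether numbers pair the samples, deviations from group means were correlated over genes. Same-numbered quadriceps and soleus of control mice gave r of 0.16 to 0.31, and those of cKO mice 0.22 to 0.45. Every one of these pairs exceeded 0.1 and matched its own number best, so they were treated as muscles of 1 animal in the blocked fit (within-animal correlation 0.195), although same-numbered arrays of different genotypes, which are different animals, also exceeded 0.1 in up to 4 of 6 pairs (r of 0.04 to 0.32 for soleus control with soleus cKO), and although the labels give different ages for number 4 of the cKO. The number of arrays limits the precision.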

Additional observations from a re-analysis of the deposited data

Results flagged for a closer look

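Chad and Mkx changed differently in the 2 muscles by the interaction test: soleus change minus quadriceps change was -1.05 for Chad and -0.58 for Mkx on the log2 scale. Mkx did not pass without number 6 in every group. Tnmd on quadriceps cKO replicate 6 read 7.96, below the other 5 arrays of its group by 0.63 of the group's range, just past Dixon's critical value for 6 samples. It was the only such array among 32 sets of 6 values (8 genes in 4 groups), and chance marks about 1 in 20 sets.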

How the results depend on the processing

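Of 1710 values under alternatives, 1634 were taken as unchanged. For the change of a gene this means the same direction and side of the threshold. For a count of calls or a median r it allows a small shift, such as from 2 members to 3. The members called ranged from 2 to 3 in quadriceps, from 6 to 7 in soleus, stayed at 6 between control muscles and ranged from 2 to 4 between cKO muscles. For the difference between muscles, 2 members were called, against 5 with the replicate number as a fixed block, 4 with the animal as a random replicate block and 4 with age as a covariate; over all genes the animal block called 2952 in place of 1966 and array weights 3570, and without quadriceps control replicate 6 the genes called lower were 1792 in place of 1183. Array weights also called 2512 lower in place of 1590 in soleus and 3060 higher in place of 1907 between cKO muscles. The animal block changed no other call on members than those printed beside the results. Pairs of members called ranged from 0 to 7 in quadriceps and from 0 to 5 in soleus when 1 array was left out. Reversed directions were all of changes near 0. Scx for the difference between muscles gave 0.0344 (median scaling), 0.0381 (75th percentile), 0.0254 (quantile) and 0.108 (without number 6, chosen after seeing the data), and from -0.159 to 0.0612 leaving out 1 array. Between cKO muscles, Tnmd gave -0.0454 (median scaling), -0.0231 (age) and from -0.0636 to 0.155 leaving out 1 array, and Chad 0.0193 (75th percentile), 0.0235 (quantile) and from -0.213 to 0.0327. Leaving out 1 array moved Tnmd in quadriceps from -0.214 to 0.052 and Kera between control muscles from -0.114 to 0.263. The cause was not tested. The share of called genes that were higher moved with scaling: in quadriceps from 55.7% to 37.5% (75th percentile), in soleus from 57% to 66.9% (median) and 47.3% (75th percentile), for the difference from 39.8% to 54.4% (median), between controls from 45.4% to 22.3% (median) and 56.2% (75th percentile), and between cKO muscles from 41.3% to 24% and 68.6%.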

Other observations

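Quadriceps and soleus of 1 genotype and number were also compared gene by gene, a comparison added after seeing the data. Over 12 such pairs the deviations of Kera from its group means correlated with r 0.71 (permutation p = 0.0141, adjusted p = 0.107 over 8 genes), with rho 0.38 (permutation p = 0.216). Without the 2 pairs whose quadriceps deviation lay farthest from the median, r was 0.06, so the relation rests on those. Tnmd gave r 0.51 (permutation p = 0.0266, adjusted p = 0.107; rho 0.44, permutation p = 0.0983) and 0.53 without the 2 farthest. None of the 8 genes passed the adjustment. With the soleus of the other genotype and the same number, which is a different animal, Kera gave r 0.63 (permutation p = 0.0423, adjusted p = 0.338; rho 0.45, permutation p = 0.167), and -0.27 without the 2 farthest.

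An exact permutation test over the 924 splits of 6 against 6 arrays gave the smallest p it allows, 0.00216 (two-sided, unadjusted), for Mkx, Fmod, Kera, Chad and Thbs4 in soleus. These are the genes whose soleus groups did not overlap, and groups without overlap give this p by construction, so it adds nothing to that. In the same exact test Tnmd gave 0.00433, Comp 0.0173 and Scx 0.0433 in soleus, and in quadriceps Thbs4 gave 0.00649 and Kera 0.0238.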
